A study of Mus musculus with 6 samples.

Results

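The guanylate-binding proteins (GBPs) and the immunity-related GTPases (IRGs) are families of GTP-hydrolysing proteins that cells make in response to interferons. A set of 10 genes of the families was chosen: Gbp2, Gbp3, Gbp6, Gbp7, Gbp8 and Gbp9 of the GBPs and Igtp, Irgm1, Irgm2 and Iigp1 of the IRGs. A gene was read from a probe set that the array annotation gives to exactly 1 symbol. Of the 10 genes, 6 had such a probe set (Gbp3, Gbp7, Gbp8, Gbp9, Irgm1 and Iigp1), out of 19938 genes with one on the whole array. Gbp2, Gbp6, Igtp and Irgm2 were found only on probe sets shared with close relatives, and those are given below as shared signals that belong to no single gene.

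Both families act against pathogens that live inside cells. GBPs are large GTPases of the dynamin superfamily that assemble on the vacuoles of parasites and on bacteria, where they open the way to lysis and to inflammasome signalling. Among IRGs, effector proteins load onto pathogen vacuoles, while regulatory proteins of the Irgm group sit on the cell's own membranes and keep the effectors in their inactive state. Interferon-gamma, made mainly by T and NK cells, induces both families through GAS and ISRE elements in their promoters, and in the liver hepatocytes as well as macrophages respond to it.

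The livers came from untreated C57Bl/6 mice aged 3 months, bred by the submitters under specific pathogen-free conditions. One group was TLR3-/-, lacking Toll-like receptor 3, an endosomal sensor of double-stranded RNA that signals toward interferon production, and the other was TLR3wt. Each group had 3 mice, and total liver RNA of each mouse was measured on 1 oligonucleotide array. No source used here says whether the groups were littermates.

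All levels are log2 signals after RMA, the summary that turns the probes of a probe set into 1 value per array, and 5 is the lowest value in the table, called the floor here. Between 15081 and 15226 of 35557 probe sets stood above the floor on an array, and the 16639 that did so on at least 1 array were tested with limma. Array medians over the tested probe sets lay between 6.54 and 6.59, and array correlations were 0.984 to 0.991 within groups and 0.980 to 0.988 between them. All 9 hepatocyte markers with a probe set of their own were above the floor, as the tissue label requires. The Tlr3 probe set was at the floor on all 6 arrays, so it could not check the genotype labels.

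The promoters show what members of the families share before any level is considered. RefSeq promoter windows of GRCm38.p6 ran from 250 bases before to 50 bases after a gene start. They were matched by symbol for 6 of the 10 genes (Gbp2, Gbp3, Gbp7, Igtp, Irgm1 and Irgm2), with 7 windows because Gbp3 has 2 starts. Iigp1 was left out of this search with the other genes of its chromosome, so its promoter was not examined. An ISRE was searched as GAAA, any 2 bases and GAAA again, and a GAS as TTCNNNGAA, each on both strands. The ISRE letters were found in all 6 matched genes and in 6 of their 7 windows (85.7%), against 1131 of 32851 RefSeq windows (3.44%). The GAS letters were found in 3 of the 7 windows (42.9%), those of Gbp7, Igtp and Irgm2, against 2726 of all windows (8.3%). A match is a run of letters and no measure of binding.

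The 100 bases before the start are printed for these 6 genes, because the ISRE match lies in this stretch in each of them. Capitals mark the ISRE match, which reads as its reverse complement where the run begins with T. The 3 GBPs lie in 1 cluster on chromosome 3, with Gbp7 at chr3:142530236-142530335 (plus strand), Gbp3 at chr3:142559944-142560043 (plus strand) and Gbp2 at chr3:142620563-142620662 (plus strand). In Gbp3 a pair of matches overlap, and the second Gbp3 start has none in its window.
Gbp7: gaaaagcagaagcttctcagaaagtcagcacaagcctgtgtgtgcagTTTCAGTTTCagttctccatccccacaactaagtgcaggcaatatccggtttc
Gbp3: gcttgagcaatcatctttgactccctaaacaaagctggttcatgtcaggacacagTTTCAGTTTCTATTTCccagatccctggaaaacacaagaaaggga
Gbp2: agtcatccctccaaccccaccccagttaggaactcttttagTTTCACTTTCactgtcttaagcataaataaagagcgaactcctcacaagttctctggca

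The 3 IRGs lie on chromosome 11, with Irgm1 at chr11:48871421-48871520 (minus strand), Igtp at chr11:58199456-58199555 (plus strand) and Irgm2 at chr11:58214877-58214976 (plus strand). Irgm1 also has a pair of overlapping matches. The windows of Igtp and Irgm2, the genes that share a probe set, have an identical run of 61 bases among their 300, and the ISRE letters are the same in both.
Irgm1: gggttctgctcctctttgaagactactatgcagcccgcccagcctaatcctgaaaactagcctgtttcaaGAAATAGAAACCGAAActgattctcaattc
Igtp: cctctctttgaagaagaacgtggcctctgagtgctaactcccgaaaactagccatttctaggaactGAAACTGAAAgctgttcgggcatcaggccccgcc
Irgm2: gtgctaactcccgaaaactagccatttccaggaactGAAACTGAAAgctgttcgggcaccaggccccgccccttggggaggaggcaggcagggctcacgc

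Among other genes of the families, the stretches of Gm12250, Tgtp1 and Gbp5 are printed, because their signals lay at opposite ends of what was measured: the first stood above the floor in TLR3wt livers alone, Tgtp1 belongs to the shared signal with the greatest difference, and the third was at the floor in every liver. Gm12250, which the reference table lists as Irgb10, is at chr11:58183743-58183842 (plus strand) and has 2 separate matches. Tgtp1 is at chr11:48992247-48992346 (minus strand). Gbp5, at chr3:142496749-142496848 (plus strand), has its match farther from the start, at 165 to 156 bases before it, so the 100 bases printed begin farther upstream than those of the other genes.
Gm12250: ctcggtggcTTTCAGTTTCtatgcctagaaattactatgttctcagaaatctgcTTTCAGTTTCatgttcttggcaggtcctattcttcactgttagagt
Tgtp1: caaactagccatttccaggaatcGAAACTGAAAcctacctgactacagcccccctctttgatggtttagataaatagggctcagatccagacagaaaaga
Gbp5: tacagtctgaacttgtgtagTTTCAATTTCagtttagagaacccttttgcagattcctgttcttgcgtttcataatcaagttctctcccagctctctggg

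Over the listed genes and their relatives together, with those on chromosome 18 left out, 15 genes had a window. Of their 16 windows, 12 (75%) held the ISRE letters and 7 (43.8%) the GAS letters. In the 6 listed genes the ISRE match began between 64 and 30 bases before the start: at 64 in Irgm2, 59 in Gbp2, 53 in Gbp7, 45 in Gbp3, 34 in Igtp and 30 in Irgm1. Ifi47, Irgq and 9930111J21Rik2 had neither motif in their windows.

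**Figure D1:**
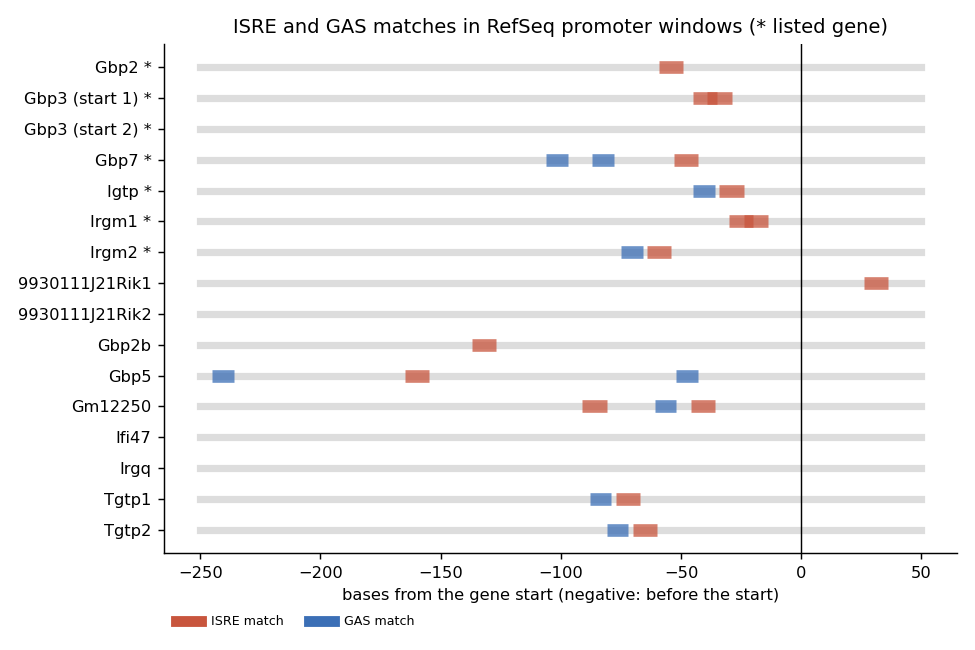
Positions of ISRE matches (red) and GAS matches (blue) in the RefSeq promoter windows of 15 GBP and IRG genes outside chromosome 18. The horizontal axis gives the distance from the gene start in bases, grey bars span each window and asterisks mark the listed genes. Matches of the 6 listed genes lie within 64 bases before the start for the ISRE, and the second start of Gbp3 has no match.

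All 6 measured genes had a lower mean in TLR3-/- than in TLR3wt livers, by 0.17 to 0.76 on the log2 scale, and none of the differences passed limma's adjusted threshold of 0.05. Across all tested probe sets 31 of 16639 passed it (0.186%), 8 of them lower in TLR3-/- (0.0481%). All 6 genes were above the floor on all 6 arrays. In 3 of the 6 genes (Gbp3, Gbp8 and Gbp9) every TLR3-/- value lay below every TLR3wt value, a pattern found in 7.04% of tested probe sets, and the same 3 had an unadjusted limma p under 0.05, as did 5.25% of tested probe sets in this direction. A mean below that of TLR3wt was found for 41.2% of tested probe sets. The median difference of the 6 genes was -0.40, against 0.03 over all tested probe sets. In RNA of whole liver, fewer cells of a type and less RNA per cell cannot be told apart.

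Among the listed genes with a probe set of their own, the 4 GBPs had the greater differences, with a median of -0.50. Gbp3, a GBP of the chromosome 3 cluster, stood at 6.02, 6.39 and 6.03 in TLR3wt replicates 1 to 3 and at 5.52, 5.46 and 5.17 in TLR3-/- replicates 1 to 3. The TLR3-/- livers were all below the TLR3wt livers, with means of 5.38 ± 0.18 and 6.15 ± 0.21 (SD, n = 3 each). The TLR3-/- values lay close to the floor. The difference was -0.76 (95% interval -1.10 to -0.43), which is 1.7-fold lower, with a limma adjusted p = 0.122.

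Gbp7, also on chromosome 3 and known for bringing NADPH oxidase subunits to pathogen vacuoles, was the GBP whose groups overlapped. Its TLR3wt values were 6.81, 6.96 and 6.49, and its TLR3-/- values were 6.57, 6.25 and 6.47. TLR3wt replicate 3 lay below TLR3-/- replicate 1. The means of 6.75 ± 0.24 and 6.43 ± 0.16 (SD, n = 3 each) differed by -0.32 (95% interval -0.67 to 0.02, limma adjusted p = 0.368), an interval that includes 0.

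Gbp8 and Gbp9 lie in the chromosome 5 cluster of GBPs. Gbp8 stood at 5.87, 5.90 and 5.92 in TLR3wt and at 5.41, 5.45 and 5.23 in TLR3-/- livers. Its TLR3wt livers lay closer together than those of any of the other 5 genes, at 5.90 ± 0.03 (SD, n = 3), and the TLR3-/- mean was 5.36 ± 0.12 (SD, n = 3). The groups were apart by -0.53 (95% interval -0.71 to -0.36), 1.45-fold lower, with the smallest adjusted p of the 6 genes (limma adjusted p = 0.0843), and they did not overlap.

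For Gbp9 the TLR3wt values were 5.74, 5.98 and 5.78 and the TLR3-/- values 5.44, 5.31 and 5.35. No TLR3-/- liver reached the lowest TLR3wt liver. Group means were 5.83 ± 0.13 and 5.36 ± 0.07 (SD, n = 3 each), a difference of -0.47 (95% interval -0.67 to -0.27), or 1.38-fold lower, with a limma adjusted p = 0.118. Both genes lay close to the floor on every array.

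The 2 listed IRGs with a probe set of their own had smaller differences, with a median of -0.18, and both overlapped between groups. Irgm1, a regulatory IRG that also takes part in autophagy, stood at 7.42, 7.55 and 7.29 in TLR3wt and at 7.12, 7.43 and 7.11 in TLR3-/- livers. TLR3-/- replicate 2 was above TLR3wt replicates 1 and 3. The means of 7.42 ± 0.13 and 7.22 ± 0.18 (SD, n = 3 each) differed by -0.20 (95% interval -0.48 to 0.07, limma adjusted p = 0.472).

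Iigp1, an effector IRG also called Irga6 that binds pathogen vacuoles, gave TLR3wt values of 9.59, 9.80 and 9.67 and TLR3-/- values of 9.50, 9.59 and 9.47. The groups touched, with TLR3-/- replicate 2 a fraction above TLR3wt replicate 1. Means were 9.69 ± 0.11 and 9.52 ± 0.06 (SD, n = 3 each), a difference of -0.17 (95% interval -0.35 to 0.01, limma adjusted p = 0.373). Other signals of the IRG family, given below, ran from -1.28 for a probe set shared by Tgtp1 and Tgtp2 to 0.10 for Gm4951. Whether the GBPs and the IRGs differ in their response to genotype was not tested.

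**Figure D2:**
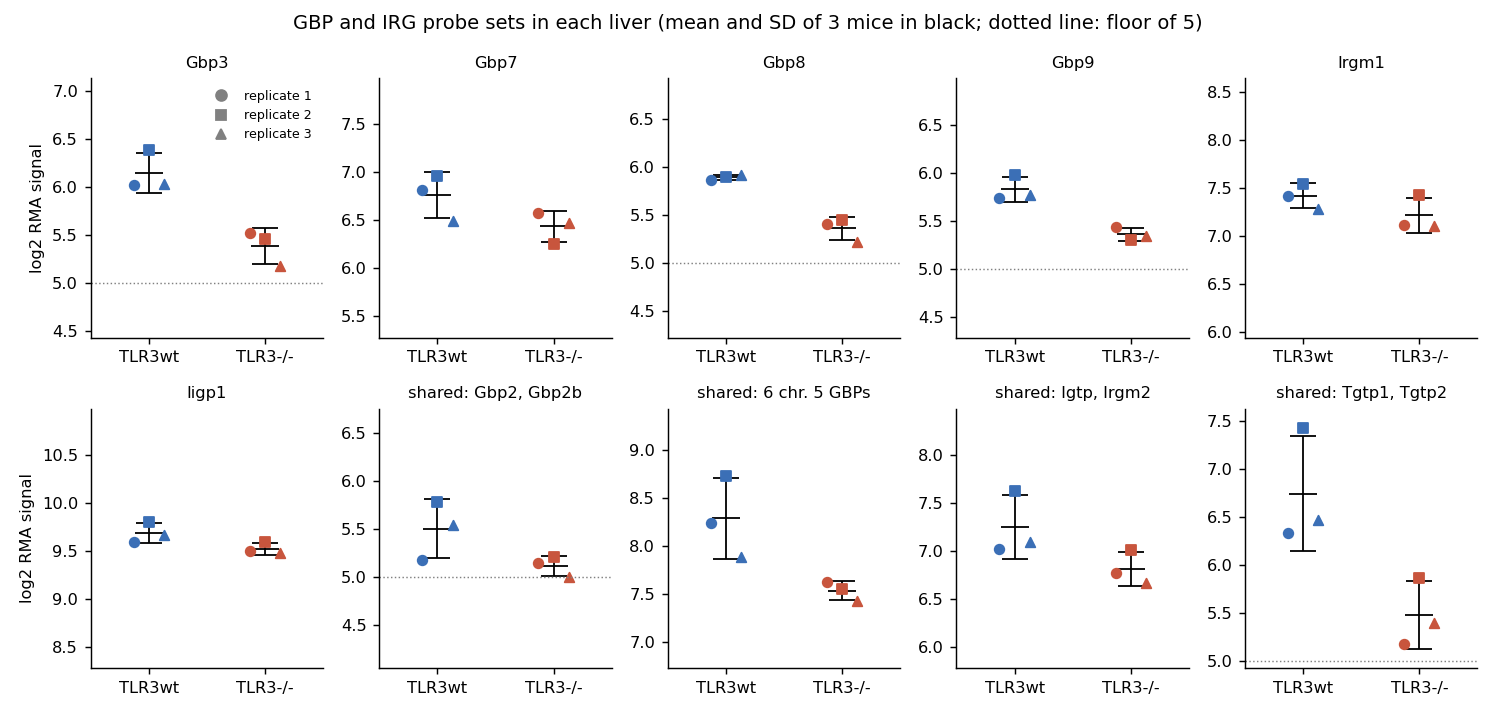
Log2 RMA signal of each mouse for the 6 genes with a probe set of their own and for 4 probe sets shared between relatives (vertical axis spans are equal, the positions differ by gene); blue points are TLR3wt and red points TLR3-/- livers, the marker shape gives the replicate, and black bars show the mean and SD of 3 mice. Groups are apart for Gbp3, Gbp8 and Gbp9 and overlap for Gbp7, Irgm1 and Iigp1.

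The probe sets shared between relatives carry the remaining listed genes. The signal shared by Gbp2, which coats parasite vacuoles, and Gbp2b was 5.18, 5.78 and 5.55 in TLR3wt and 5.15, 5.21 and the floor in TLR3-/- livers. TLR3-/- replicate 2 was above TLR3wt replicate 1, so the groups overlapped, and the difference was -0.39 (95% interval -0.77 to -0.00, limma adjusted p = 0.341). The signal shared by Gbp6 and 5 other chromosome 5 genes (Gbp4, Gbp8, Gbp9, Gbp10 and Gbp11) was 8.24, 8.73 and 7.88 against 7.62, 7.55 and 7.42. Those groups were apart, with a difference of -0.75 (95% interval -1.26 to -0.25), 1.68-fold lower, at a limma adjusted p = 0.207.

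Igtp (also called Irgm3) and Irgm2, a pair of regulatory IRGs, shared a probe set at 7.03, 7.63 and 7.09 in TLR3wt and 6.77, 7.01 and 6.67 in TLR3-/- livers. The highest TLR3-/- liver lay just below the lowest TLR3wt liver, and the difference was -0.43 (95% interval -0.87 to 0.00, limma adjusted p = 0.35). Tgtp1 and Tgtp2, effector IRGs of the Irgb6 type, shared a pair of probe sets with the greatest differences in the families. One stood at 6.33, 7.42 and 6.47 against 5.18, 5.86 and 5.39, which is 2.4-fold lower (log2 difference -1.27, limma adjusted p = 0.187). The other, with TLR3-/- replicate 1 at the floor, gave -1.28 (2.43-fold lower, limma adjusted p = 0.183), and on both every TLR3-/- value was below every TLR3wt value.

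The remaining shared probe sets had smaller differences. The signal shared by the IRG Ifi47 and the olfactory receptor gene Olfr56 differed by -0.26 with groups apart (limma adjusted p = 0.287). Both probe sets shared by 9930111J21Rik1 and 9930111J21Rik2 were at the floor in all TLR3-/- livers, at least 1.08-fold and at least 1.07-fold lower than in TLR3wt (limma adjusted p = 0.437 and 0.433). These bounds are close to no difference. A signal shared by Gvin1, a very large interferon-inducible GTPase, and Gm4070 differed by -0.17 with overlapping groups.

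Other genes of the families had a probe set of their own as well. Gm12250 (Irgb10), an effector IRG that opens bacteria in the cytosol, was at 5.41, 5.65 and 5.52 in TLR3wt livers and at the floor in all 3 TLR3-/- livers. Its mean was at least 1.44-fold lower in TLR3-/-, a bound set by the floor (limma adjusted p = 0.0843). Gbp4, of the chromosome 5 cluster, stood at 6.59, 6.53 and 6.28 against 6.03, 6.18 and 6.04, a difference of -0.38 with groups apart (1.3-fold lower, limma adjusted p = 0.183).

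Gbp11, its neighbour, had values of 6.71, 5.82 and 5.88 against 6.08, 5.90 and 5.77. The difference of -0.22 (limma adjusted p = 0.739) rested on TLR3wt replicate 1, since it was 0.071 without that liver. Gbp2b was above the floor in TLR3wt replicate 2 alone, at 5.21. Gm4951, an IRG-like gene that neighbours Iigp1 on chromosome 18, had the higher mean in TLR3-/-, at 9.81, 9.88 and 10.04 against 9.96, 10.02 and 10.06. Its groups overlapped and the difference was 0.10 (95% interval -0.08 to 0.29, limma adjusted p = 0.59). Irgq, a distant IRG relative, differed by -0.05 (limma adjusted p = 0.791).

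Some family genes gave no level in these livers. Gbp5, which promotes inflammasome assembly, Gm4841 and the testis-associated Irgc were at the floor on all 6 arrays, as were the antiviral dynamin-like GTPases Mx1 and Mx2.

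**Figure D3:**
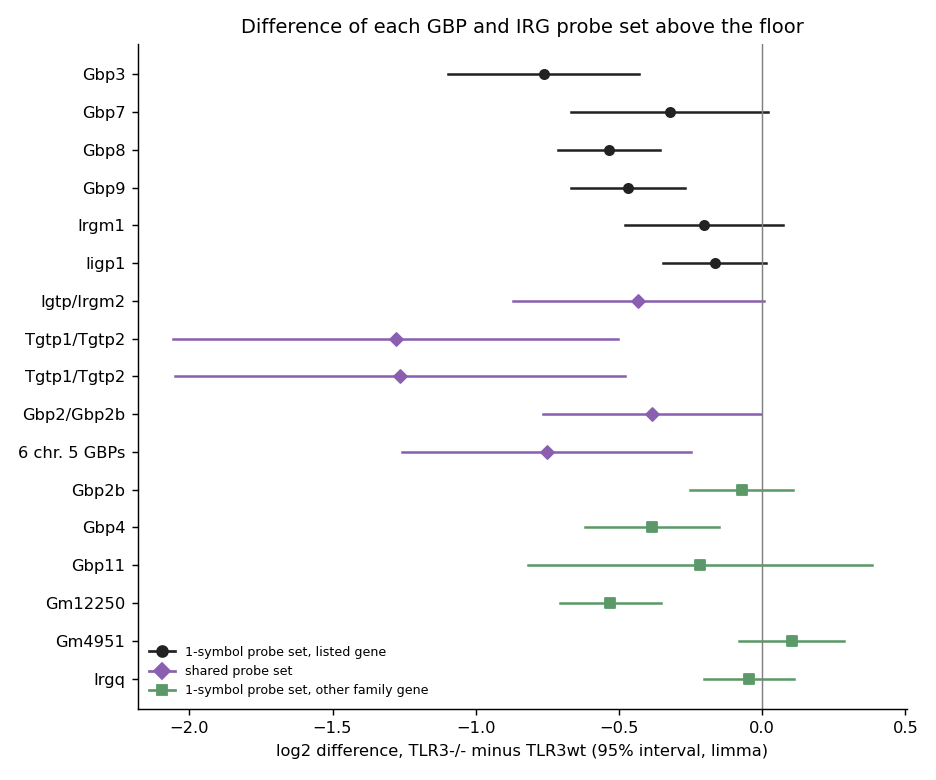
Log2 difference, TLR3-/- minus TLR3wt, with its 95% interval from limma, for GBP and IRG probe sets with 1 symbol and for those shared between relatives. Values run from -1.28 for a probe set shared by Tgtp1 and Tgtp2 to 0.10 for Gm4951, and none passed the adjusted threshold. The values of Gm12250 and Gbp2b are bounds because their TLR3-/- livers were at the floor.

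**Figure D4:**
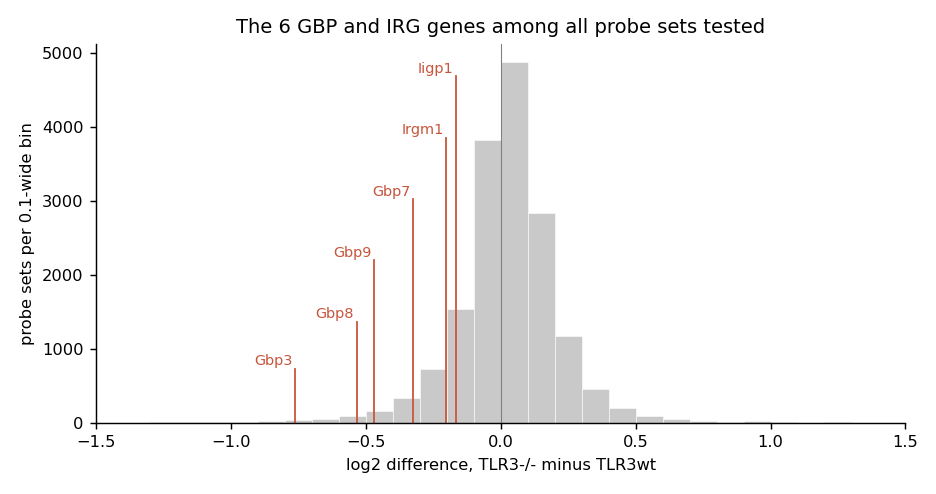
Distribution of log2 differences (TLR3-/- minus TLR3wt) over the 16639 tested probe sets, with the 6 listed genes marked. The median over all probe sets was 0.03, and the 6 genes lay between -0.76 and -0.17.

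The livers of a group did not spread alike. TLR3wt replicate 2 was the highest of the 6 livers in 5 of the 6 genes, and replicate 3 in Gbp8. TLR3-/- replicate 3 was the lowest in 4 genes and TLR3-/- replicate 2 in the other two. Averaged over the 6 genes and taken relative to the TLR3wt mean, TLR3wt livers stood at -0.05, 0.14 and -0.09 and TLR3-/- livers at -0.36, -0.37 and -0.49. For the GBPs alone the TLR3-/- livers stood at -0.42, -0.54 and -0.60. For the IRGs they stood at -0.25, -0.04 and -0.26, with TLR3-/- replicate 2 at the level of the TLR3wt livers.

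Genes with the profile most like the mean profile of the 6 genes were sought among 4978 other genes above the floor on all arrays. Genes whose range over the 6 arrays was below a set minimum were left out of these. Profiles were scaled to mean 0 and SD 1 over the 6 arrays and compared by their root mean square distance. The nearest was Apobec1, the cytidine deaminase that edits Apob transcripts, at a distance of 0.0997, with a difference of -0.53 (limma adjusted p = 0.118). Next came Sgce, a sarcoglycan, at 0.17, then Dnajb1, an HSP40 co-chaperone, at 0.182, Ccn2, connective tissue growth factor, at 0.199, and Dst, a cytoskeletal linker, at 0.227. All 5 were highest in TLR3wt replicate 2 and lowest in TLR3-/- replicate 3, as was the mean profile they were chosen to resemble. These distances are a description and carry no test.

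The upstream pathway was described from lists of its parts. Of 12 interferon ligands and receptors 6 were at the floor on all arrays, including the ligands Ifng and Ifnb1, so the level of the inducing cytokines could not be read. The 6 tested were divided equally, 3 lower and 3 higher, with a median of 0.04. Ifngr1, the ligand-binding chain of the interferon-gamma receptor, differed by -0.27 (limma adjusted p = 0.392). Ifngr2, its signalling chain, differed by -0.13 (limma adjusted p = 0.532), and Ifnar1, a chain of the type I receptor, by 0.18 with groups apart (limma adjusted p = 0.354).

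Of 16 JAK-STAT and IRF regulators 13 were tested, 9 lower and 4 higher, with a median of -0.05 and none past the threshold. Irf8, an interferon-gamma-induced factor of myeloid cells, stood at 5.91, 5.89 and 5.97 against 5.60, 5.63 and 5.66, with groups apart (difference -0.29, limma adjusted p = 0.122). Irf7, which drives type I interferon genes, differed by -0.38 with overlapping groups (limma adjusted p = 0.284), and the kinase gene Jak2 by 0.20 (limma adjusted p = 0.346). Among 8 negative regulators 5 were lower and 3 higher, with a median of -0.07. Usp18, an interferon-induced inhibitor of type I receptor signalling, differed by -0.48 with groups apart (limma adjusted p = 0.169), Ptpn1 by -0.30 (limma adjusted p = 0.262) and Pias1 by 0.14 (limma adjusted p = 0.42).

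Other targets of interferon-gamma were taken from a list that holds no GTPase. Of its 20 listed genes 14 were tested, 12 lower and 2 higher, 8 with groups apart in the lower direction against the 7.04% of all probe sets, and 0 past the limma threshold. Their median difference was -0.27, and 8 had an unadjusted limma p under 0.05 in the lower direction. Over all tested probe sets the shares were 41.2% for a lower mean and 5.25% for such a p. Cxcl9, a chemokine that attracts T cells, stood at 6.67, 7.26 and 7.23 against 5.55, 5.89 and 5.05, which is 2.95-fold lower (log2 difference -1.56, limma adjusted p = 0.112). Slfn2, a schlafen gene of immune cells, differed by -0.56 with 2 TLR3-/- livers at the floor (limma adjusted p = 0.0765), and Psmb8, an immunoproteasome subunit, by -0.46 (limma adjusted p = 0.148).

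Partners of the GTPases were described too. The ATG8 conjugation machinery, which IRGs and GBPs need for correct placement on membranes, had 12 of 12 genes tested, 2 lower and 10 higher, with a median of 0.14. Groups were apart in the higher direction for 4 of the 12, against 13% of all tested probe sets, and none passed the limma threshold, with 2 at an unadjusted p under 0.05 in this direction, against 9.21% of all tested probe sets. Gabarapl1 differed by 0.29 (limma adjusted p = 0.281), Atg12 by 0.19 (limma adjusted p = 0.283) and Map1lc3a by 0.13 (limma adjusted p = 0.361). Of 8 inflammasome partners 7, among them Casp1, Casp4, Aim2 and Nlrp3, were at the floor on all arrays, and Gsdmd, the pore-forming gasdermin, differed by -0.10 (limma adjusted p = 0.704). Of 7 ubiquitin and adaptor genes 6 were tested, 3 lower and 3 higher, with Nbr1 at 0.12, Ube2l6 at -0.31 and Traf6 at 0.12 (lowest limma adjusted p of the 3 = 0.413).

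Markers of the cells that could carry these transcripts were measured beside them. Kupffer cell and macrophage markers were lower in 15 of 16 genes, with groups apart in 13, a median of -0.79 and 0 past the limma threshold (13 at an unadjusted p under 0.05). Over all tested probe sets the shares in this direction were 41.2% for a lower mean, 7.04% for groups apart and 5.25% for the unadjusted p. Their summed linear signal was 3262 to 4345 in TLR3wt and 1842 to 2843 in TLR3-/- livers. Adgre1, which encodes the macrophage protein F4/80, differed by -1.00 (limma adjusted p = 0.114), Marco, a scavenger receptor, by -1.08 (limma adjusted p = 0.138) and Timd4, a marker of resident Kupffer cells, by -0.90 (limma adjusted p = 0.0994). The summed linear signal of the 6 GTPase genes was 1232 to 1410 in TLR3wt and 1051 to 1147 in TLR3-/- livers. This sum is mostly the signal of Iigp1, the gene with the smallest difference of the 6, and is no measure of the GBPs. Means were lower in TLR3-/- livers for 15 of the 16 macrophage markers and for all 4 GBPs with a probe set of their own (median -0.50). The part of the markers in the GTPase values was not tested.

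The order of the livers was not the same for both. Relative to the TLR3wt mean, macrophage markers averaged -0.57, -1.07 and -0.48 in TLR3-/- replicates 1 to 3, lowest in replicate 2. The 6 GTPase genes averaged -0.36, -0.37 and -0.49, with the GBPs at -0.42, -0.54 and -0.60 and the IRGs at -0.25, -0.04 and -0.26. Gbp7 and Gbp9 were lowest in TLR3-/- replicate 2, as the markers were, and the other 4 genes in replicate 3. In TLR3wt livers the markers and the mean of the 6 GTPase genes were both highest in replicate 2, at 0.23 and 0.14.

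Of 18 T and NK cell genes 15, including Cd3d, Cd3e, Cd4, Ncr1 and Nkg7, were at the floor on all arrays. Prf1 and Cd8a were above it in some TLR3wt livers alone, with differences of -0.05 and -0.02, and the list summed to 544.0 to 548.1 in TLR3wt and 544.0 in every TLR3-/- liver, close to its floor. All 6 B cell markers and all 7 neutrophil and monocyte markers with a probe set of their own were at the floor on all arrays. Of 8 dendritic cell markers 3 were tested, and Bst2, itself induced by interferon, differed by -0.29 with groups apart (limma adjusted p = 0.169). Zbtb46 differed by -0.23 and Clec9a by -0.04. The dendritic cell list summed to 844.2 to 869.8 in TLR3wt and 697.1 to 755.1 in TLR3-/- livers. With 5 of its 8 genes at the floor, this sum is mostly the Bst2 signal and is no separate measure of dendritic cells. Bst2 stood at 9.25 to 9.29 in TLR3wt and at 8.85 to 9.03 in TLR3-/- livers.

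Liver endothelial markers were divided, 4 lower and 6 higher of 10, with a median of 0.02 and summed signals of 1697 to 2280 and 1794 to 2169. Among them Lyve1 differed by -0.56, Pecam1 by -0.24 and Fcgr2b by 0.29. Hepatocyte markers were 6 lower and 3 higher of 9, with a median of -0.01 and summed signals of 42630 to 43830 and 42070 to 42820. Tat, a tyrosine-degrading enzyme, differed by -0.39, Hnf4a, a hepatocyte transcription factor, by -0.26 and Cyp2e1 by 0.25.

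**Figure D5:**
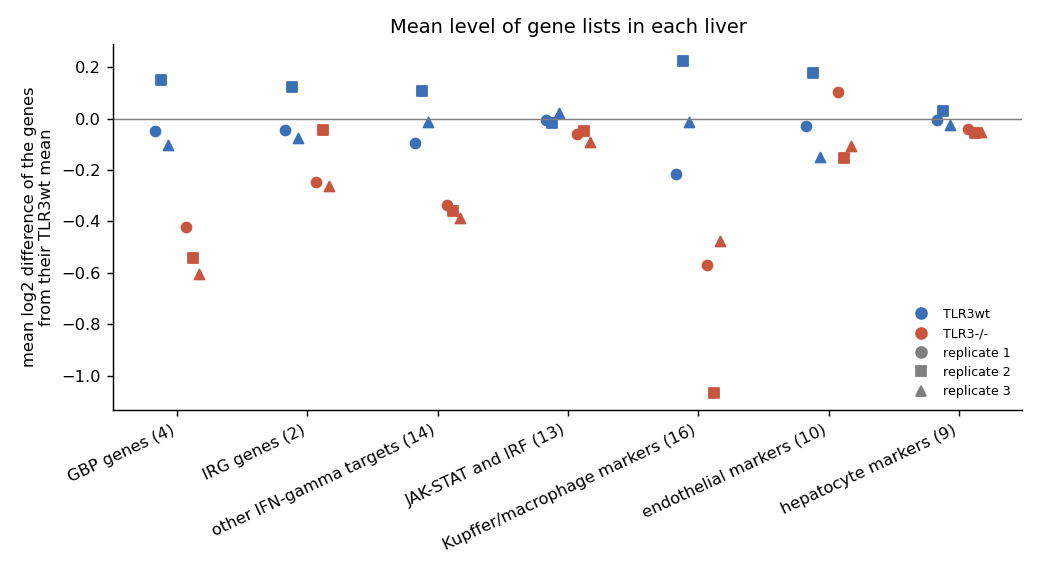
Mean log2 deviation of each mouse from the TLR3wt mean for 4 listed GBPs, 2 listed IRGs and lists of interferon targets, signalling genes and cell type markers. Each point is 1 liver. TLR3-/- livers stand at -0.42 to -0.60 for the GBPs, at -0.04 to -0.26 for the IRGs and at -0.48 to -1.07 for macrophage markers, while hepatocyte markers stay within -0.06 to 0.03 in all livers.

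Position along the chromosome was examined with the 3 nearest tested genes on each side of the 4 clusters (24 genes). Of these 9 were lower and 15 higher, with a median of 0.05, and none passed the limma threshold (lowest adjusted p = 0.0994). Groups were apart in the lower direction for 3 of the 24 and in the higher direction for 4, against 7.04% and 13% of all tested probe sets. Values ran from -0.90 for Timd4, which lies beside the Irgm1 cluster and is a macrophage marker, to 0.50 for the zinc finger gene Zfp62.

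Promoter letters were also set against the differences of genes outside the families. Of 291 tested genes with the ISRE letters in a window 46.7% had a mean below that of TLR3wt, against 37.8% of 8033 genes without them, and the median differences were 0.01 and 0.04. Of 40 genes with both ISRE and GAS letters, 26 (65.0%) were below, with a median of -0.06. Of 604 genes with GAS letters and no ISRE letters 36.6% were below. These shares describe the promoter letters of genes on the array and carry no test.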

How the data were processed

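Total liver RNA of 3 TLR3-/- and 3 TLR3wt mice was measured on 1 array per mouse. The deposited table holds log2 signals, which the authors computed by RMA; the submitters' processing notes name Affymetrix Expression Console as the software. Groups came from the sample titles, and 0 columns belonged to other samples. Of 35557 probe sets, 21789 had 1 gene symbol, 1621 several and 12147 none, from the array annotation, and 21698 of the first were matched by gene ID to the reference table of GRCm38.p6. Genes were read from 1-symbol probe sets, the brightest over the 6 arrays where a gene had several.

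The 18918 probe sets at the floor of 5 on all arrays did not enter the fit, and the other 16639 were fitted with limma 3.58.1 in R 4.3.3 (lmFit, eBayes, two-sided, group as the only term, Benjamini-Hochberg adjustment over all tested probe sets, threshold 0.05). Where all arrays of a group were at the floor, the fold is a bound against 5. The number of arrays limits the precision. The procedure was tested on simulated data. Deviations of same-numbered samples correlated at 0.05, -0.01 and -0.06, so the numbers were not taken to pair the mice.

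The genes, the lists and the alternatives were chosen with earlier results of these data known. The text names the 10 genes, all measured relatives, from each list at most 4 genes past the threshold or, with none past it, 3 by smallest unadjusted p, the 5 genes of most similar profile, and Tlr3. Genes named as being at the floor or without a probe set, the ends of the range of neighbouring genes, and the genes of the printed relatives' promoters fall outside this rule and were chosen after their values were seen. Levels of different probe sets were not compared.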

Additional observations from a re-analysis of the deposited data

How the results depend on the processing

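All 6 listed genes kept a mean below that of TLR3wt and stayed short of the adjusted threshold in each of the 105 values computed under the alternatives (17 or 18 per gene). The lowest adjusted p among them was 0.0631, for Gbp8 with a gene's probe sets averaged. Of the 1002 values for all 60 genes and shared probe sets named, 1001 kept their direction and their side of the threshold, and Gbp11 turned to 0.071 without TLR3wt replicate 1 (-0.37 to 0.071 without 1 mouse). Leaving out 1 mouse at a time, the median of the 6 genes ran from -0.48 to -0.31. With brighter probe sets alone, 3 of the 6 genes were tested, all 3 below TLR3wt, with a median of -0.20.

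The number of probe sets past the threshold on the whole array, 31, moved more. It was 21 with brighter probe sets, 35 with a trended and robust variance and 35 with array weights. It was 0 with all 35557 probe sets (2018 at an unadjusted p under 0.05), 18 with those above the floor on all arrays, 1 with 1-symbol probe sets, 9 after quantile normalisation, 14 after centring, 2 with an ordinary pooled variance and 4 with a replicate block. Without 1 mouse it ran from 0 to 13, with 0 without TLR3wt replicate 1, TLR3wt replicate 2 or TLR3-/- replicate 3, 1 without TLR3-/- replicate 1 or 2, and 13 without TLR3wt replicate 3. With 3 mice a group, listed-gene intervals that included 0 were those of Gbp7, Irgm1, Iigp1 and the signal shared by Igtp and Irgm2. Among relatives, those of Gbp2b, Gbp11, Gm4951 and Irgq included 0 as well. So did those of the signals shared by 9930111J21Rik1 and 9930111J21Rik2 and by Gvin1 and Gm4070. Genes at the floor have no measured level.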
